A study of Mus musculus with 6 samples.

Results

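The genes described here make, sense and break down prostaglandins. They were chosen by name as a list of 10 genes: Ptgs1, Ptgs2, Ptges, Ptges2, Ptgis, Ptgds, Ptgfr, Ptger2, Ptger4 and Hpgd. Of these, 9 were measured, out of 19856 genes tested in all. Ptgs1 had no probe set that carried its symbol alone and was not analysed here. Each measured gene had 1 such probe set.

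The samples were mouse embryonic fibroblasts, cells of the connective tissue cultured from embryos, in DMEM medium with 10% serum, harvested at 80% confluence. A tetraploid line (label 174), described as having abnormal DNA contents and called transformed in the title, gave 3 arrays. A diploid line (label FW), described as the normal control, gave the other 3. The sources used here give no strain, embryo age or way in which the tetraploid line arose. With 1 line for each ploidy, the effects of ploidy, of transformation and of the line cannot be told apart. Nothing in the labels tells whether a line's 3 samples came from separate cultures, so p-values measure only the spread between these samples, which may be technical.

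Prostaglandins are lipid signals made from arachidonic acid, which phospholipases release from membranes. A cyclooxygenase, encoded by Ptgs1 or by the inducible gene Ptgs2, turns it into an unstable intermediate, and terminal synthases turn that into prostaglandin E2, D2, F2 alpha or prostacyclin. These act on receptors at the cell surface and are inactivated by a dehydrogenase. In fibroblasts, Ptgs2 is best known as a gene that growth factors and cytokines switch on rapidly.

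The promoters of 3 genes are shown because the 2 lines did not overlap in their levels and RefSeq's table for GRCm38.p6 held an entry for them. Each is the 250 bases before the start that the table lists, 5′ to 3′ on the gene's strand. For Ptges that start lies inside the span RefSeq gives the gene. Capitals mark matches, on either strand, to 1 of 8 motifs searched. The motifs were TGACG for the CRE core, TGANTCA for the AP-1 site, CACGTG for the E-box and TTNNGNAA for the C/EBP site. The others were GGGCGG for the GC box, CCAAT for the CCAAT box, TATAAA for the TATA box and GGAATG for the TEAD site. The Ptgs2 stretch lies at chr1:150099781-150100030 on the plus strand, that of Ptges at chr2:30903298-30903547 and that of Ptgfr at chr3:151837529-151837778, both on the minus strand.
Ptgs2: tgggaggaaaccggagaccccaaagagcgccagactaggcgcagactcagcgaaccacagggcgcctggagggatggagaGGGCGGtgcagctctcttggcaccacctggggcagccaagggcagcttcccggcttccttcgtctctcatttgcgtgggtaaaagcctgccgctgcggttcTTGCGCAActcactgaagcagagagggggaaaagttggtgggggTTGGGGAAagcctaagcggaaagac
Ptges: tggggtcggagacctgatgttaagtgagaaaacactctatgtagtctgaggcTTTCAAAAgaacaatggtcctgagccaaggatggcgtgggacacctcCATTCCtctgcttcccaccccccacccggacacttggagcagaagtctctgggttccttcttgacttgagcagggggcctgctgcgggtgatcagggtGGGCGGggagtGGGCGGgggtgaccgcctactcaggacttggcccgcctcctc
Ptgfr: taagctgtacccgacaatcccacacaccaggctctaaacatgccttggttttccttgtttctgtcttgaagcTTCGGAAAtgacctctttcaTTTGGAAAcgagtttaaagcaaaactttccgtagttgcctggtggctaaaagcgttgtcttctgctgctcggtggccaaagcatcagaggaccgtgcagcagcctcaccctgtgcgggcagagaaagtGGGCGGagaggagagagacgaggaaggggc

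Ptgs2 had a GC box match starting 170 bases before the start and C/EBP matches starting 69 and 25 bases before it. A CRE core match began 14 bases after the listed start, outside the stretch shown, and overlapped an E-box match. Among the 8 measured genes with an entry, Ptgs2 was the only one with a CRE core match in the 300 bases searched. Such a match lay in 20.8% of 32851 promoters, and 7.15% held an E-box match. Of the 8 genes, 2 had an E-box match, 5 a GC box match and 7 a C/EBP match. Ptges had 2 GC boxes, starting 53 and 42 bases before the start, where 35.7% of promoters had at least 1. Ptgfr had 1 starting 30 bases before the start and another that spanned it, and 2 C/EBP matches, a loose motif found in 40.7% of promoters. Ptgis was not in the table. A match describes the letters and not the binding of a factor.

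Levels are log2 values as deposited, so a difference of 1 is a 2-fold change. A background level was set for each array at the 95th percentile of 1027 olfactory receptor genes (odour receptors, known mainly from the nose), and lay between 7.01 and 7.41. Of the 9 genes, 5 lay above it on all 6 arrays, 2 on some and 2 on none. On this scale, 35.3% of all genes lay at or below background on all 6 arrays.

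Ptgs2 and Ptgis fell in the tetraploid line, so that the inducible cyclooxygenase and the prostacyclin synthase were both lower there. Ptges, the inducible synthase of prostaglandin E2, and Ptgfr, the receptor for prostaglandin F2 alpha, lay higher on all tetraploid arrays than on any diploid array but did not pass the test. The other 5 genes overlapped between the lines. By limma, with a Benjamini-Hochberg adjusted p below 0.05 over all genes as the threshold, 2 of 9 genes fell, where 7.80% of all genes did. The same test called 0 of 9 higher, where 6.15% of all genes were, although 2 of them had an unadjusted p under 0.05. Groups did not overlap in 4 of 9 genes, near the 37.3% among all genes. In 2 of the 4 the tetraploid arrays were higher, as in 19.1% of all genes, and in 2 lower, as in 18.2%. The median difference was -0.23 over the 9 genes and 0.07 over all genes.

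**Figure D1:**
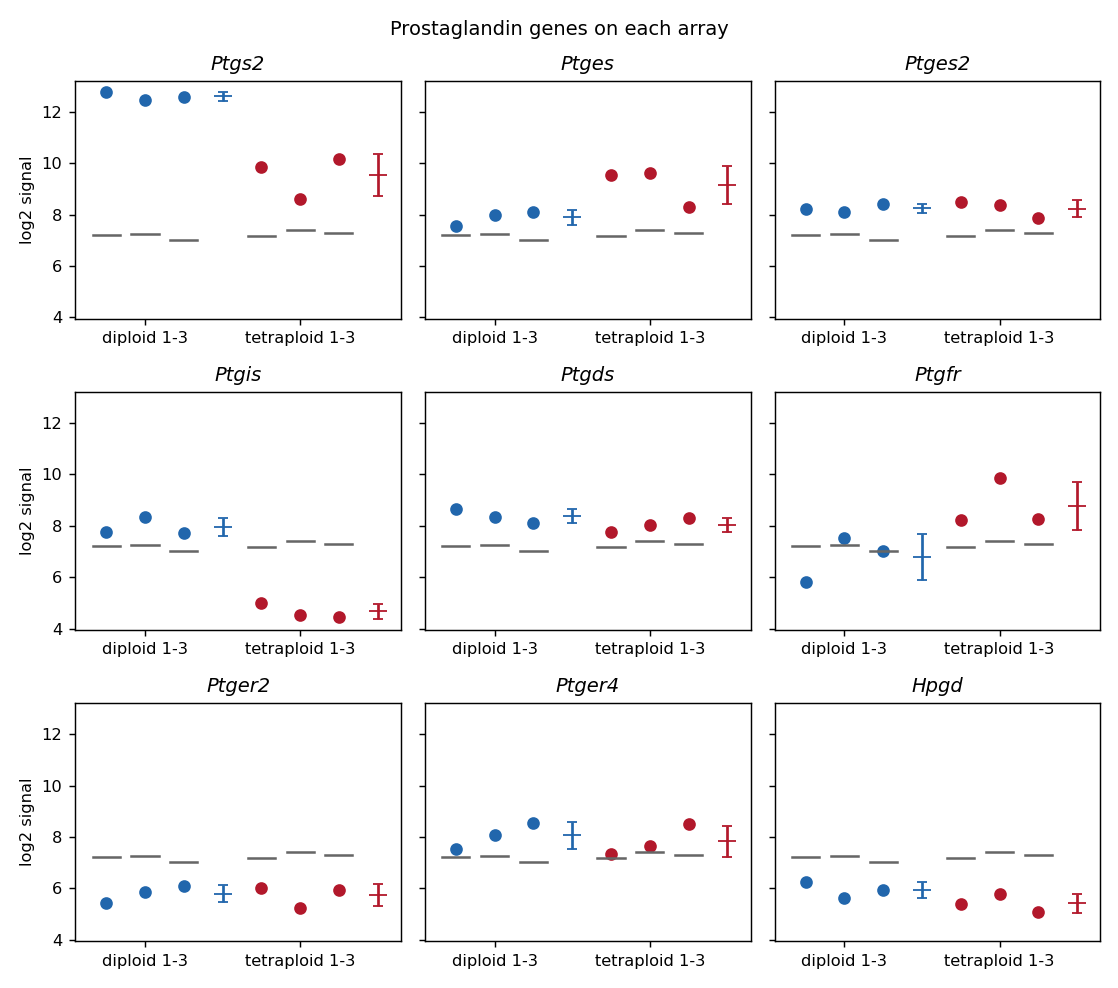
Log2 signal of the 9 measured genes on each array, diploid in blue and tetraploid in red. Short grey lines give each array's background level, and the bar beside each group is the mean ± SD (n = 3). Ptgs2 lay above 12 on every diploid array and below 11 on every tetraploid array, and Ptgis lay below background on all 3 tetraploid arrays.

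Ptgs2 (probe set 10350516) lay at 12.78, 12.46 and 12.57 on diploid arrays 1 to 3. On tetraploid arrays 1 to 3 it lay at 9.87, 8.61 and 10.16. The diploid arrays were close together, all 3 tetraploid arrays lay below them, and tetraploid array 2 was the lowest. The means were 9.55 ± 0.82 against 12.60 ± 0.16 (SD, n = 3), an 8.32-fold lower level (log2 difference -3.06, 95% interval -4.01 to -2.10, limma adjusted p = 0.00601). Ranked from the most negative difference, Ptgs2 was number 398 of 19856 genes. The spread of Ptgs2 over the tetraploid arrays exceeded that of 90.4% of genes, while over the diploid arrays it exceeded that of only 34.4%. Against the diploid mean, the nearest tetraploid array, array 3, stood at -2.45 and the farthest, array 2, at -3.99.

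Ptgis (probe set 10489878), which turns the cyclooxygenase product into prostacyclin, lay at 7.77, 8.35 and 7.74 on diploid arrays 1 to 3. On the tetraploid arrays it lay at 5.01, 4.54 and 4.46. The diploid values stood modestly above background, and all tetraploid values stood far below it, where the signal has no firm relation to the amount of transcript. The means were 4.67 ± 0.30 against 7.95 ± 0.35 (SD, n = 3), a log2 difference of -3.28 (95% interval -3.91 to -2.66, limma adjusted p = 0.00109). Since no tetraploid array rose above background, the fold is given with values raised to the background level, and Ptgis was then at least 1.58-fold lower (adjusted p = 0.0269). Among the 9 genes, the array profile nearest to that of Ptgs2 was that of Ptgis. This follows from their similar differences between the lines and is no further result.

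Markers of other cell types were compared as well, and not all of them moved with these falls. Smooth muscle cells are a known site of Ptgis expression, and 4 of 6 smooth muscle markers fell. The mean of that list was 11.51 to 11.94 on the diploid arrays and 7.62, 7.23 and 9.26 on tetraploid arrays 1 to 3. Acta2 and Cnn1 did not pass the test, and with Tagln they lay above background on all 6 arrays. Of 7 endothelial markers 3 fell, but 5 of the 7, Pecam1 and Cdh5 among them, lay at or below background on all arrays. Falls made up 4 of 18 macrophage, 1 of 7 epithelial and 0 of 7 mast cell markers. They made up 2 of 8 markers of the leptomeninges and mesothelium, a list that holds Ptgds. Over all genes 7.80% fell. Those 2 markers, Wt1 and Lrrn4, lay at or below background on all 6 arrays. So did Erg and Mrc1, which fell in the endothelial and macrophage lists. Of 12 fibroblast markers 11 lay above background on all 6 arrays and 3 fell. The part of smooth muscle or endothelial transcripts in the Ptgis result was not tested, and in bulk samples fewer cells of a type and less RNA per cell cannot be told apart.

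Ptges (probe set 10481518) lay at 7.56, 8.0 and 8.12 on diploid arrays 1 to 3. On the tetraploid arrays it lay at 9.54, 9.62 and 8.28. Tetraploid arrays 1 and 2 stood well above the diploid values, whereas array 3 stood just above the highest of them. The means were 9.15 ± 0.75 against 7.89 ± 0.29 (SD, n = 3), 2.39-fold apart (log2 difference 1.26, 95% interval 0.33 to 2.18, limma adjusted p = 0.0799). Without array 3 the difference was 1.69 and passed the test (adjusted p = 0.0169). With all arrays it passed with only genes above the median level (0.0261), with values raised to background (0.0195) and with a trended and robust eBayes (0.0246). Raising values changed no value of Ptges, so its lower p there came from the other genes in the fit. Calls over all genes went from 2770 to 3947 in that setting. Over all alternatives the adjusted p of Ptges ran from 0.0169 to 0.321.

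Ptges2 (probe set 10471411), a second synthase of prostaglandin E2 that is not known as inducible, had overlapping groups. It lay at 8.23, 8.09 and 8.40 on the diploid arrays and at 8.48, 8.36 and 7.87 on the tetraploid arrays. The lowest and the highest value were both tetraploid, and the difference had a 95% interval of -0.56 to 0.55 (limma adjusted p = 0.992). The interval holds changes of that size in either direction. Ptgds (probe set 10480734), the lipocalin-type synthase of prostaglandin D2, lay at 8.65, 8.35 and 8.11 on the diploid arrays and at 7.75, 8.02 and 8.32 on the tetraploid arrays. The groups overlapped through tetraploid array 3, and the difference was -0.34 (95% interval -0.92 to 0.24, limma adjusted p = 0.410).

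**Figure D2:**
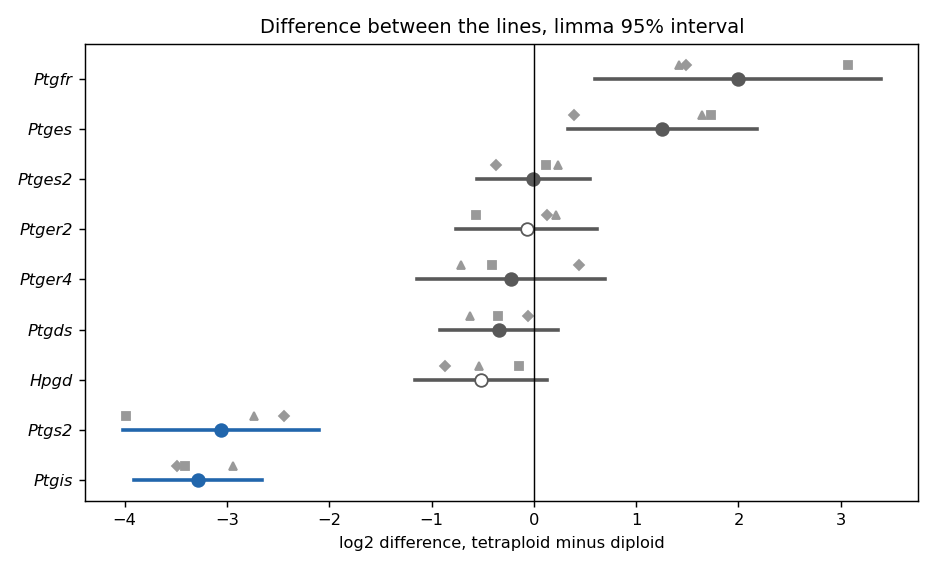
Log2 difference of each gene, tetraploid minus diploid, with limma's 95% interval. Blue marks the genes that fell, open circles mark genes at or below background on all arrays, and small grey triangles, squares and diamonds show tetraploid arrays 1, 2 and 3 against the diploid mean. Ptgs2 at -3.06 and Ptgis at -3.28 stand apart at the left, and Ptges at 1.26 and Ptgfr at 1.99 at the right.

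Ptgfr (probe set 10502805) encodes the prostaglandin F2 alpha receptor, which signals through calcium. It lay at 5.80, 7.54 and 7.03 on diploid arrays 1 to 3, of which 2 were just above background. On the tetraploid arrays it lay at 8.21, 9.86 and 8.28, all above background and above every diploid array. Tetraploid array 2 was the highest and diploid array 1 the lowest. The means were 8.78 ± 0.94 against 6.79 ± 0.90 (SD, n = 3), 3.98-fold apart (log2 difference 1.99, 95% interval 0.59 to 3.39, limma adjusted p = 0.0692). Ranked from the most positive difference, Ptgfr was number 219. Its spread exceeded that of 92.6% of genes over the tetraploid arrays and of 95.4% over the diploid arrays. With values raised to background, which lifts diploid array 1, the difference was 1.52 and passed the test (limma adjusted p = 0.0175). That setting also lowered the adjusted p of Ptges, none of whose values it changed, so the pass cannot be put down to diploid array 1 alone. It also passed with only genes above the median level (0.0215). Over all alternatives the adjusted p ran from 0.0175 to 0.170.

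Ptger4 and Ptger2 encode receptors for prostaglandin E2 that raise cAMP. Ptger4 (probe set 10427461) lay at 7.52, 8.09 and 8.56 on the diploid arrays and at 7.35, 7.64 and 8.50 on the tetraploid arrays. The 2 ranges nearly coincided, and the difference was -0.23 (95% interval -1.14 to 0.69, limma adjusted p = 0.755). Ptger2 (probe set 10414271) lay between 5.24 and 6.09 on all 6 arrays, below background throughout, so no fold is given.

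Hpgd (probe set 10571840), which encodes the dehydrogenase that inactivates prostaglandins, was likewise below background on every array. It lay at 6.24, 5.61 and 5.95 on the diploid arrays and at 5.39, 5.78 and 5.06 on the tetraploid arrays, and the groups overlapped.

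The diploid arrays also differed among themselves in macrophage transcripts. The mean of 18 macrophage markers was 4.84, 6.38 and 7.10 on diploid arrays 1 to 3 and 4.11 to 4.36 on the tetraploid arrays. Between 0 and 1 of the 18 lay above background on each tetraploid array and 1, 4 and 9 on diploid arrays 1 to 3. Ptger4, Ptges and Ptger2 had the same order over the diploid arrays, Ptgds had the reverse order, and Ptgs2 and Ptgis followed neither. The part of macrophage transcripts in the levels of these genes was not tested. Against diploid array 1 alone, a control chosen after seeing the data, the difference was -3.23 for Ptgs2 and -3.10 for Ptgis. With that lone control, assumed to vary as the tetraploid arrays did, neither passed the test (limma adjusted p = 0.117 and 0.0514). All 7 mast cell markers lay at or below background on all arrays.

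The tetraploid array nearest to the diploid mean was array 3 in 4 of the 9 genes, array 2 in 3 and array 1 in 2. Over all genes, array 3 was nearest in 40.1%, array 1 in 34.1% and array 2 in 25.8%, so the counts in this short list were near those shares. Array 2 held the lowest Ptgs2 and the highest Ptgfr, and array 3 the lowest Ptges.

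To find genes with a like pattern, each gene's mean over the 6 arrays was subtracted and the Euclidean distance between profiles was taken, in log2 units, over 11193 genes above background on at least 3 arrays. The profiles nearest to Ptgs2 were those of Cpt1c (0.44), D030025P21Rik (0.50) and Trpv2 (0.52), against a median distance of 4.07. Nearest to Ptgis were Hs3st1 (0.49), Tlcd2 (0.50) and Ehd3 (0.66), with a median of 4.21. Of those 6 genes, all but Cpt1c were above background in the diploid line only.

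Ptges lay nearest to Cand2 (0.24), Gnb1l (0.43) and Ccdc167 (0.43), with a median distance of 1.97, and Ptges2 to Tnrc6c (0.11), Zmynd19 (0.16) and Larp1 (0.16). Ptgds lay nearest to 6230400D17Rik (0.10), Dmrt3 (0.17) and Kalrn (0.20). No gene came as close to Ptgfr, whose nearest were Gng7 (1.09), Mapk8ip1 (1.15) and Hexdc (1.18). Ptger4 lay nearest to Pde4b (0.43), a phosphodiesterase that breaks down cAMP, then to Syndig1l (0.43) and Cd40lg (0.46), with a median of 1.50.

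Ptgs2 lies on chromosome 1 next to Pla2g4a, which encodes the cytosolic phospholipase that supplies cyclooxygenases with arachidonic acid. Both neighbours fell, Ptgs2 far more than Pla2g4a (log2 difference -0.95, limma adjusted p = 0.0496). Of the 20 measured genes nearest to Ptgs2, 10 on each side, 17 had a difference below 0 and 5 fell, where 59.4% of the 1122 measured genes of chromosome 1 and 45.2% of all genes were below 0. On the whole chromosome 12.6% of genes fell and 1.96% rose. The median difference of these neighbours was -0.53, against -3.06 for Ptgs2 itself. The part of the region in the fall of Ptgs2 was not tested.

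Around the other genes the medians lay between -0.27, for Ptger2, and 0.42, for Ptger4. Of the 20 neighbours of Ptgis on chromosome 2, 2 fell and 0 rose, with a median of -0.08, where 6.99% of that chromosome's genes fell and 5.83% rose. Ptges, Ptges2 and Ptgds lie on chromosome 2 as well, and the medians of their neighbours were -0.06, 0.15 and 0.35. Around Ptgfr on chromosome 3 the median was 0.01, against 1.99 for Ptgfr itself. Of the neighbours of Ptger4 on chromosome 15, 2 of 20 rose, where 16.0% of that chromosome's genes did, and Ptger4 itself stood at -0.23.

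**Figure D3:**
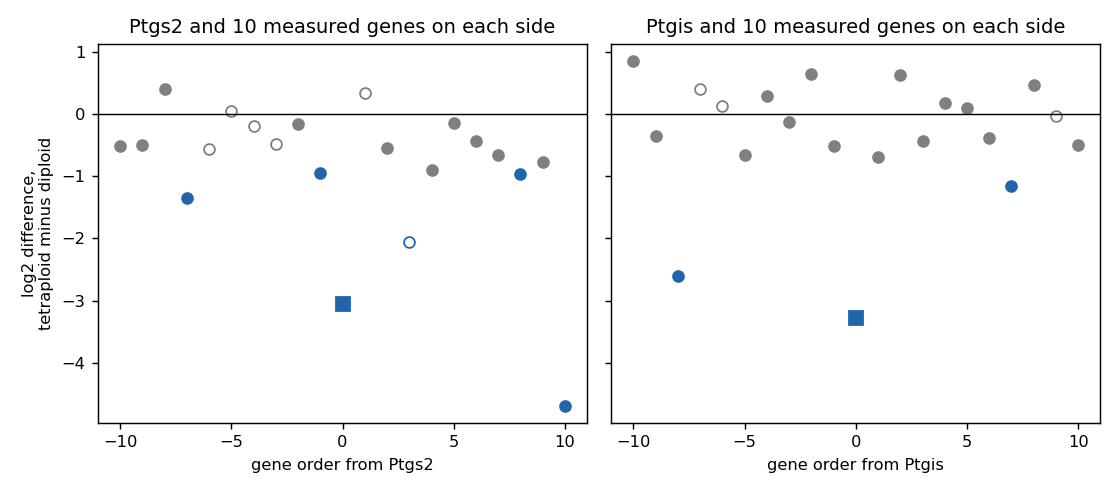
Log2 difference, tetraploid minus diploid, of Ptgs2 and Ptgis (squares) and of the 10 measured genes on each side in gene order. Blue marks genes that fell, grey those that did not pass the test, and open symbols, grey or blue, lay at or below background on all arrays. Around Ptgs2 17 of 20 neighbours lie below 0, with a median of -0.53, while those around Ptgis scatter about a median of -0.08.

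Beyond the list, 126 genes of the wider pathway were measured in 9 groups. Of them 24 fell, or 19.0%, and 8 rose, or 6.35%, where 7.80% and 6.15% of all genes did. Their median difference was -0.15. The groups were chosen with earlier results of these data known, so the share that fell is no independent result. The 24 include Nr4a3, Dpep1 and Ephx2, which lay at or below background on all 6 arrays. With values raised to background 22 fell and 12 rose. With only genes above the median level, which tests fewer genes, 16 fell and 9 rose. Leaving out tetraploid array 2 gave 15 falls, and leaving out diploid array 1, 2 or 3 gave 9, 11 or 7. The count that rose was 5 after leaving out tetraploid array 2 or 3 or diploid array 1, and 3 after leaving out diploid array 2. Over all genes the calls dropped from 2770 to between 837 and 2532 when any 1 array was left out.

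Genes that supply arachidonic acid fell where they were called. Of 23 measured, 4 fell, or 17.4%, and 0 rose, where 7.80% and 6.15% of all genes did. In both lines 7 of the 23 lay at or below background. Mgll, a lipase that frees arachidonic acid from an endocannabinoid, stood at 10.50 ± 0.08 on the diploid arrays and lay below background on all tetraploid arrays, at least 9.23-fold lower (limma adjusted p = 0.0101). Pla2g4a stood at 10.72 ± 0.39 on the tetraploid and 11.67 ± 0.14 on the diploid arrays (SD, n = 3), a 1.93-fold fall. The diacylglycerol lipase genes Dagla and Daglb fell as well. Dagla was above background on 1 of 3 tetraploid arrays (log2 difference -0.74, or -0.72 with values raised to background). Daglb was above it on 1 of 3 diploid arrays and on 0 tetraploid arrays, and raising values to background ended its call and turned its sign (0.0576, adjusted p = 0.757). The call of Mgll held without any 1 array, that of Dagla ended without any 1 (adjusted p 0.0635 to 0.153), that of Pla2g4a without any but tetraploid array 3 (0.0754 to 0.156, and 0.0501 with arrays centred on their medians) and that of Daglb when tetraploid array 2 or 1 of the diploid arrays was left out (0.0605 to 0.0703).

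Of 11 other prostanoid synthases and reductases 2 rose, or 18.2%, and 0 fell, where 6.15% and 7.80% of all genes did. The other 9 did not pass. Gstm3, a glutathione S-transferase of the mu class, stood at 12.12 ± 0.29 against 9.37 ± 0.43 (SD, n = 3), 6.73-fold higher (limma adjusted p = 0.00277). This value depends on the probe set, since averaging all probe sets of Gstm3 gave a log2 difference of 1.20 (adjusted p = 0.0155) in place of 2.75. Cbr2, a carbonyl reductase, rose (log2 difference 2.54, adjusted p = 0.0173), although only 1 of 3 diploid arrays was above background. With values raised to background its difference was 2.42, and its call ended without tetraploid array 3 or diploid array 2 or 3 (adjusted p 0.0505 to 0.0660). Of 9 other receptors 1 fell and 1 rose, or 11.1% each. Tbxa2r, the thromboxane receptor, was at least 1.39-fold lower (adjusted p = 0.0189, or 0.0889 with values raised to background), while Ptgdr, a prostaglandin D2 receptor next to Ptger2, lay below background on all 6 arrays. Both calls ended in some fits without 1 array, that of Tbxa2r without tetraploid array 3 or diploid array 2 or 3 (0.0507 to 0.0769) and that of Ptgdr without tetraploid array 2 or 3 or diploid array 1 or 2 (0.0583 to 0.110). That of Ptgdr also ended with a trended and robust eBayes (0.0569). Raising values to background replaced every value of Ptgdr, so its result there (0.463) describes the background levels and not the gene.

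Genes that carry prostaglandins across membranes or break them down moved in both directions. Of 6 measured, 3 fell, or 50%, and 1 rose, or 16.7%, where 7.80% and 6.15% of all genes did. The list median was -0.65. Slco2a1, the prostaglandin transporter that takes prostaglandins up for breakdown, lay at 7.92, 9.18 and 8.38 on the diploid arrays. It lay at 4.25, 5.06 and 6.80 on the tetraploid arrays, at least 2.31-fold lower (limma adjusted p = 0.0250). All diploid arrays stood above background and no tetraploid array did. Slco3a1, a related organic anion transporter, was 2.90-fold lower (adjusted p = 0.00709), and Ptgr2, a prostaglandin reductase, at least 1.81-fold lower. Akr1c14, an aldo-keto reductase, was at least 2.44-fold higher. The call of Slco3a1 held without any 1 array. That of Slco2a1 ended without any but tetraploid array 3 (adjusted p 0.0535 to 0.0880), that of Ptgr2 when 1 of the diploid arrays was left out (0.0624 to 0.0972) and that of Akr1c14 without tetraploid array 2 or diploid array 2 (0.0537 and 0.0595).

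Known inducers and regulators of Ptgs2 included 4 genes that fell, or 22.2%, and 0 that rose, of 18 measured. Over all genes 7.80% fell and 6.15% rose, and the list median was -0.29. Fos, an early response gene and part of the AP-1 factor, lay at 11.03, 11.26 and 10.70 on the diploid arrays and at 7.80, 8.05 and 8.10 on the tetraploid arrays, which were all lower. The difference was -3.01, an 8.08-fold fall (limma adjusted p = 8.92e-04). Zfp36, whose protein speeds the decay of short-lived messengers such as that of Ptgs2, was 2.74-fold lower. The phosphatase gene Dusp1 was 3.85-fold lower and the stress factor gene Atf3 at least 1.72-fold lower. The call of Fos held without any 1 array. Those of Dusp1 and Zfp36 ended without any but tetraploid array 3 (adjusted p 0.0578 to 0.134), and that of Atf3 without any but tetraploid array 2 (0.0544 to 0.133). That of Dusp1 also ended with quantile normalization (0.0514) and with a trended and robust eBayes (0.0751).

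Transcripts known to respond to prostaglandin E2 or cAMP held the largest count of falls among the 9 groups. Falls made up 7 of the 15 measured, or 46.7%, and 1 rose, or 6.67%, where 7.80% and 6.15% of all genes did. Another 7 did not pass the test, and the list median was -1.10. Nr4a1, a nuclear receptor gene induced early by cAMP, stood at 9.03 ± 0.59 on the tetraploid and 11.35 ± 0.06 on the diploid arrays, 5.0-fold lower (limma adjusted p = 0.00645). Its relative Nr4a3 lay below background on all arrays. The cytokine genes Il6 and Il11 were below background throughout the tetraploid line. In the diploid line Il6 lay above background by less than 1 unit on all 3 arrays and Il11 above it on 1, so their lower bounds were small, 1.05-fold and 1.03-fold. The calls of Nr4a1, Nr4a3 and Il6 held without any 1 array, and that of Il11 ended without any but diploid array 2 (adjusted p 0.0545 to 0.113) and with array weights (0.0662). With values raised to background the calls of Il6, Il11 and Crem, which also fell, ended (limma adjusted p 0.740, 0.863 and 0.382). That setting replaced every value of Nr4a3, so its result there (0.463) describes the background levels and not the gene. Has2 and Ier3 fell too, and their calls held with values raised (7.53e-04 and 7.97e-04). The 1 gene that rose was Tnfaip6, 3.07-fold higher (0.0101, or 3.25e-04 with values raised).

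Genes that couple prostaglandin receptors to cAMP and calcium held 2 falls and 1 rise among 18 measured, or 11.1% and 5.56%, near the shares over all genes, and 15 did not pass. Prkar2b, a regulatory subunit of the cAMP-dependent kinase, stood at 10.99 ± 0.14 against 9.85 ± 0.24 (SD, n = 3), 2.21-fold higher (limma adjusted p = 0.0172), and its call was lost without diploid array 1 (0.0717) or 2 (0.0811). The adenylyl cyclase genes Adcy2 and Adcy4, which make cAMP, were below background throughout the tetraploid line, and Adcy4 was at least 1.10-fold lower. In the diploid line Adcy2 lay above background on only 1 of 3 arrays and Adcy4 on 2. The call of Adcy2 ended when 1 of the diploid arrays was left out (0.0910 to 0.0998) and that of Adcy4 without diploid array 3 (0.0517). Raising values to background ended both calls (0.596 and 0.463).

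In the 2 branches of arachidonic acid metabolism that bypass cyclooxygenase, the large changes above background lay in 1 gene each, Mgst2 and Ephx1. Of 18 lipoxygenase and leukotriene genes 1 rose and 1 fell, or 5.56% each. Over all genes 6.15% rose and 7.80% fell, so these shares were no higher. In both lines 9 of the 18 lay at or below background. Mgst2, which can make leukotriene C4, was at least 6.58-fold higher (limma adjusted p = 7.88e-04), while the dipeptidase gene Dpep1, below background on all arrays, fell. Of 8 epoxygenases and epoxide hydrolases 2 fell, or 25%, 1 rose, or 12.5%, and 5 lay at or below background in both lines. Ephx1, the microsomal epoxide hydrolase, stood at 8.02 ± 0.35 on the tetraploid and 12.00 ± 0.02 on the diploid arrays, 15.8-fold lower (adjusted p = 3.77e-04). Ephx2 lay below background throughout, and Cyp4f13 was 1.83-fold higher. The calls of Mgst2 and Ephx1 held without any 1 array. That of Dpep1 ended when 1 of the diploid arrays was left out (0.0512 to 0.0561), that of Ephx2 without tetraploid array 1 or 2 or diploid array 1 or 3 (0.0573 to 0.0682) and that of Cyp4f13 without any but tetraploid array 1 (0.0628 to 0.138).

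**Figure D4:**
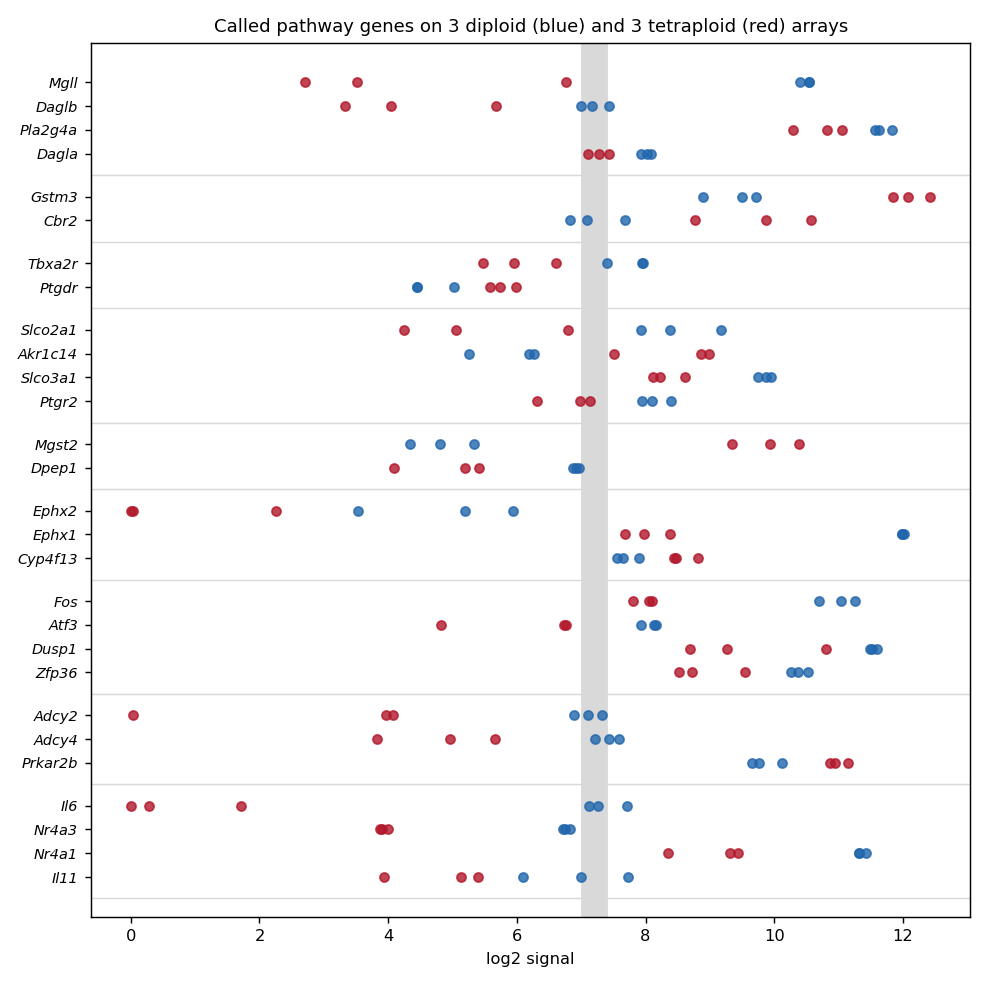
Log2 signal of 28 of the pathway genes named above on the 3 diploid arrays (blue) and 3 tetraploid arrays (red). The 9 groups run from arachidonic acid supply at the top to responsive transcripts at the bottom. The grey band spans the background levels, 7.01 to 7.41. Mgll, Ephx1 and Fos lie to the right in blue, Gstm3 and Mgst2 in red, and the genes were chosen for their calls, so that the 2 lines stand apart in each is no result.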

How the data were processed

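The authors deposited 1 log2 value per probe set and array for 28944 probe sets. Per the submitters' processing notes the tool was Affymetrix Expression Console. Its version, algorithm and normalization are not given in the sources used here. Raising 2 to the deposited log2 values below 1000 on the linear scale gave whole hundredths (tolerance 0.1 hundredths) for 100% of them. Array medians differed by 0.0435, so values were used as deposited. Probe sets with 1 symbol (21789) were matched to RefSeq names (21698 matched), and per gene the probe set with the largest mean signal was kept.

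The lines were compared in R 4.3.3 with limma 3.58.1 (lmFit, eBayes, two-sided), which was tested on simulated data. With 3 arrays a line, the smallest p of an exact permutation test is 0.1. Array numbers recur in both lines but did not pair them (deviations of same-numbered arrays correlated at 0.101, 0.0307 and -0.0461). The gene list, the pathway groups and the tests were chosen with earlier results of these data known. From each pathway group the called genes among the 4 largest differences were named and drawn. Has2, Ier3, Crem and Tnfaip6 were named besides. Arrays give no counts, so their number limits the precision. Alternatives are listed in the closing section.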

Additional observations from a re-analysis of the deposited data

How the results depend on the processing

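The falls of Ptgs2 (log2 difference -3.36 to -2.59) and Ptgis (-3.45 to -3.08) held without any 1 array, so the number of listed genes that fell was 2 to 2 there, and that of genes higher was 0 to 1. With a constant 2 that fell, 2 genes were called higher with values raised to background, 1 with a trended and robust eBayes and 1 with the replicate block. With only genes above the median level 2 were called higher and 1 lower, since Ptgis was then not tested. Against diploid array 1 alone, an alternative chosen after seeing the data, 0 fell, and of pathway genes 2 rose and 4 fell. Without 1 array, 3 to 9 pathway genes rose and 7 to 22 fell. With the replicate block 6 rose and 20 fell, Ptgfr passed (adjusted p = 0.0272), 6 named pathway genes lost their calls (Pla2g4a, Dagla, Ptgdr, Ptgr2, Cyp4f13 and Dusp1), and calls over all genes dropped from 2770 to 1644. Raising values to background turned the sign for Daglb (0.0576) and Adcy2 (0.0929), whose values lay mostly below background and were replaced by it. The sign also turned for Dpep1, Ephx2 and Nr4a3 (each 0.12). Every value of these genes was replaced, so that difference describes the background levels and not the genes. Quantile normalization, median centring, array weights and averaging of probe sets left both counts of listed genes as they were. Averaging moved Gstm3 from 2.75 to 1.20. A signal below background limits what can be said of Ptgis, Ptger2 and Hpgd.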
